A study of Mus musculus with 4 samples.

Results

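Glutamate and GABA receptors are built from subunits encoded by a large set of genes, and the neuroretina of the embryonic day 13.5 mouse was examined here for all of those that the arrays measured with a single gene symbol. The set was chosen by symbol and not by value, but with earlier results of these data known. It comprised the Gria (AMPA receptor), Grik (kainate receptor), Grin (NMDA receptor), Grm (metabotropic glutamate receptor), Gabr (GABA-A receptor) and Gabbr (GABA-B receptor) genes. Of the 20252 genes tested, 38 were such genes with a transcript cluster of their own, and other members of these families were not analysed here. A transcript cluster is the group of probes that an exon-type array summarises as 1 transcribed unit.

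AMPA, kainate and NMDA receptors are ion channels that open on binding glutamate and carry most fast excitation. Metabotropic glutamate receptors and GABA-B receptors instead signal through G proteins. GABA-A receptors are chloride channels of several subunits, and those made of rho subunits are best known from the retina, on bipolar cells. In the developing retina the transmitters and some of their receptors are present before synapses form.

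The study profiled dissected neuroretina from CD-1 mice on 4 single-colour Affymetrix arrays, 2 per group. Control arrays carried RNA of the genotype Lhx2 lox/lox, in which a homeodomain factor gene of early eye and forebrain development is flanked by lox sites. The other 2 arrays carried RNA of Chx10-Cre;Lhx2 lox/lox retina, called Cre arrays below, in which a Chx10 transgene expresses Cre recombinase in retinal progenitor cells. Both groups carried the lox alleles and only 1 group carried the transgene, so what the transgene does by itself and what losing Lhx2 does cannot be told apart. The labels number the replicates without saying if different animals, litters or pools gave the RNA, and the p-values therefore cover only the spread between these samples, which may be technical.

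Values are log2 signals centred on each array's median, and every difference is Cre minus control. Each array's 75th percentile over all transcript clusters, 4.19 to 4.33 after centring, was used as a mark below which a signal may not be above background. Log2 signals correlated at 0.978 between control arrays, at 0.967 between Cre arrays and at 0.947 to 0.966 across genotypes. All 9 measured retinal progenitor markers were above the 75th percentile on all 4 arrays, and their median difference was -1.26. The Lhx2 cluster read 6.59 and 6.16 on control replicates 1 and 2 and 6.73 and 6.24 on Cre replicates 1 and 2, a difference of 0.11 (limma adjusted p = 0.968). The sources used here do not give which part of Lhx2 the probes cover, so this reading does not check the genotype labels. In tissue RNA, more cells of a type and more RNA per cell cannot be told apart.

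No receptor gene passed the test at an adjusted p of 0.05 with limma, and neither did any other gene (0% of 20252). Without adjustment, 1959 genes had p under 0.05, among them 12 of the 38 receptor genes. Of these, 11 were higher in the Cre arrays, 28.9% of the receptor genes beside 5.9% of all genes, and 1 was lower, 2.63% beside 3.77% of all genes. With each array's values as deposited, limma called 2.05% of all genes and 2 receptor genes, Gria2 and Gabrb2. In a simulation of an earlier analysis of these data, adjusted p on the values as deposited did not hold its error rate. With arrays centred on the genes tested instead of on all transcript clusters, a setting added after seeing the data, limma called 0.583% of genes and 1 receptor gene, Gria2. At an adjusted p of 0.10 it called 0.0839% of genes and no receptor gene.

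The signals themselves show where the receptor genes stood. In 17 of 38 both Cre arrays were above both control arrays, 44.7% beside 23.3% of all genes. Grin2c alone had both Cre arrays below both controls, 1 of 38 beside 15.8% of all genes. These counts moved with the scaling: with arrays centred on the genes tested, 13 receptor genes were higher without overlap beside 10.1% of all genes, and 10 were lower beside 35.1%. Of the 17 genes, 10 were higher without overlap under all 4 scalings examined: Gria2, Gria3, Grik1, Grik2, Grik3, Gabra2, Gabra4, Gabrb1, Gabrb2 and Gabbr1. Groups are called separate or overlapping below on the centred values. Taking arrays by replicate number, 22 receptor genes were higher in both pairs (57.9%, against 37.9% of all genes) and 1 was lower in both (26.6% of all genes). The median difference over the 38 genes was 0.26, and that over all genes was 0.03. Without control replicate 1 the receptor median was 0.43 and without control replicate 2 it was 0.11. In replicate 1 the receptor genes' median difference was 0.12 and in replicate 2 it was 0.36. The median centred signal of all genes tested was also higher on the Cre arrays. It was 4.61 against 4.37 in replicate 1 and 4.37 against 4.25 in replicate 2. Of the 38 genes, 21 were below the 75th percentile on every array and 9 were above it on all 4. On the centred values the receptor median lay 0.23 above the all-gene median, and with quantile normalization it lay 0.26 above. In each, 23 of the 38 genes lay above the all-gene median. The other scalings shift all genes of an array alike, so they could not change this gap or this count.

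**Figure D1:**
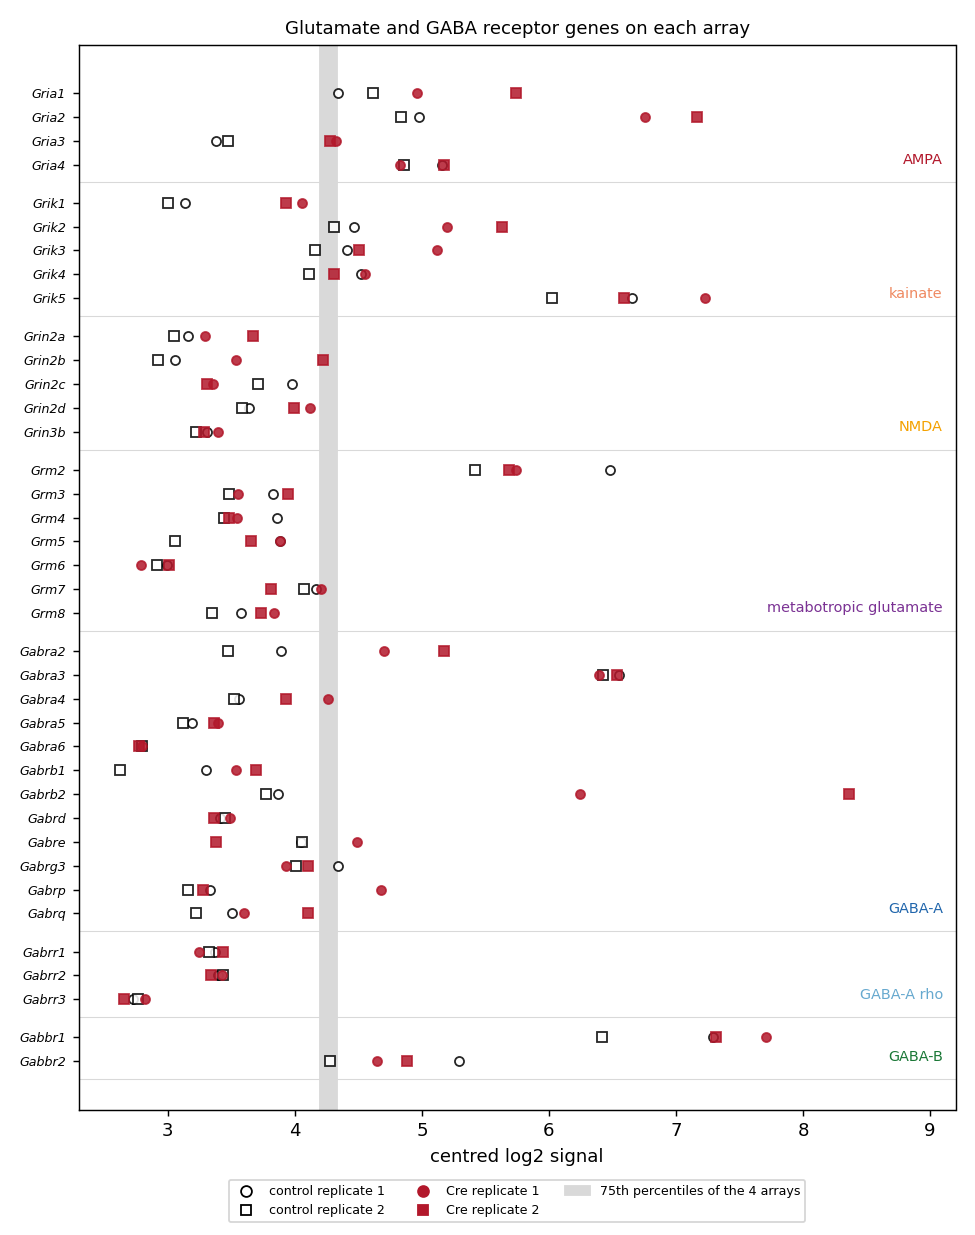
Centred log2 signal (horizontal axis) of the 38 receptor genes, grouped by family, with open symbols for the 2 control arrays and filled symbols for the 2 Cre arrays. The grey band spans the 4 arrays' 75th percentiles of all transcript clusters, 4.19 to 4.33, and the filled symbols of Gria2 and Gabrb2 stand far to the right of the open ones.

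Gria2 and Gabrb2 had the widest gap between genotypes of all receptor genes, and were the only receptor genes at least 2-fold higher in both replicate pairs (1.29% of all genes). Their promoters are printed to show the sequence at the start of these genes. Each runs from 250 bases before the annotated start to 50 bases after it, 5′ to 3′ on the gene's strand, from RefSeq on GRCm38.p6. Gria2 lies on the minus strand at chr3:80802786-80803085, and the first of 3 annotated Gabrb2 promoters lies on the plus strand at chr11:42420190-42420489. Capitals mark the TATA element TATAAA, found by search on both strands.
Gria2: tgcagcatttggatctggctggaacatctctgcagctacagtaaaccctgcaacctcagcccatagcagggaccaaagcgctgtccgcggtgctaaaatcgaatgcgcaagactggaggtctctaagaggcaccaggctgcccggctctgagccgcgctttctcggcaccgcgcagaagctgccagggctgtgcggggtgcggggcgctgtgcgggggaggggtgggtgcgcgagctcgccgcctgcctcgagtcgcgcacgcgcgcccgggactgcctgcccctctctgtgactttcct
Gabrb2: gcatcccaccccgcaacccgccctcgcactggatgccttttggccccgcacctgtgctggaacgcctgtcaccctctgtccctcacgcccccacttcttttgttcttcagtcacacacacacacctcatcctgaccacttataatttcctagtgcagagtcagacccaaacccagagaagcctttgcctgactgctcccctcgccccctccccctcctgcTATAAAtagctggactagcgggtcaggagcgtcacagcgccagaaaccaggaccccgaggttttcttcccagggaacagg
The Gria2 window had 65.7% G and C and no TATAAA, and the Gabrb2 window had 59.0% G and C with the element starting at position -30. RefSeq promoters were matched for 30 of the 38 receptor genes, 37 windows in all, with a median of 59.7% G and C beside 52.7% over all 32851 mouse promoters. TATAAA stood in 4 of the 37 windows, of Gabra3, Gabrb2 and Grin3b, and in 13.6% of all promoters. The Gabra3 windows overlap and share a single site, which reads TTTATA on the gene's strand. The other Gabrb2 windows had no TATAAA. The letters TAATTA, a core that many homeodomain proteins bind and that reads the same on both strands, stood in none of the 37 windows and in 5.29% of all promoters. Both motifs were chosen with the results known, and these counts are descriptions of the windows only.

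Among the AMPA receptor genes, Gria2 encodes GluA2, the subunit whose RNA-edited form keeps calcium out of the channel. Gria2 read 4.98 and 4.83 on control replicates 1 and 2, and 6.76 and 7.17 on Cre replicates 1 and 2. The groups lay well apart, with both controls just above the 75th percentile of their arrays. Its difference was 2.06 ± 0.25 (SE, n = 2 per group), 4.16-fold, with a limma p of 0.000417 and an adjusted p of 0.11. Adjusted p did not hold its error rate on the values as deposited, so the next value is not read as a call. On the values as deposited the adjusted p from limma was 1.27e-05, and over all alternatives it ran from 1.27e-05 to 0.460.

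Gria1, for the GluA1 subunit, read 4.34 and 4.62 on the controls and 4.97 and 5.74 on the Cre arrays. The groups did not overlap, and the wider gap was in replicate 2. Its difference was 0.87 ± 0.32 (SE), 1.83-fold, with a limma adjusted p of 0.485. Gria3, for GluA3, had the same mean difference with less spread: 3.38 and 3.47 on the controls against 4.32 and 4.28 on the Cre arrays (0.87 ± 0.14 SE, limma adjusted p = 0.158). It was singled out after its values were seen, and its signal passed the 75th percentile on 1 array. Gria4, for GluA4, did not share this pattern. It read 5.16 and 4.86 on the controls and 4.83 and 5.17 on the Cre arrays, all above the 75th percentile, and the difference of -0.01 had opposite signs in the 2 replicates (-0.33 and 0.31).

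The kainate receptor genes were on the higher side as a family, all 5 of them in both replicate pairs. Grik2 encodes GluK2, a subunit that forms channels on its own. It read 4.46 and 4.31 on the controls and 5.20 and 5.63 on the Cre arrays. All 4 signals were above the 75th percentile and the groups were separate. The difference was 1.03 ± 0.24 (SE), 2.04-fold, with a limma adjusted p of 0.288.

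Grik1, for GluK1, had nearly equal differences in the 2 replicates, 0.92 and 0.93. Its signals were 3.14 and 3.005 on the controls and 4.05 and 3.93 on the Cre arrays. The groups did not overlap, but every array was below its 75th percentile. The mean difference was 0.92 ± 0.13 (SE), with a limma adjusted p of 0.123. Of the rest, Grik3 was 0.53 higher with separate groups, Grik5 was 0.57 higher and Grik4 was 0.12 higher with overlapping groups. Grik5 encodes GluK5, a receptor subunit that needs a partner such as GluK2 to form a channel. Grik4 was the kainate gene whose sign turned with the scaling, from -0.06 to 0.12.

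All 5 measured NMDA receptor genes were below the 75th percentile on every array, and Grin1, the obligatory subunit, was not analysed here. Grin2b, for the GluN2B subunit that predominates before birth in much of the brain, read 3.06 and 2.92 on the controls and 3.54 and 4.22 on the Cre arrays. Both Cre arrays were above both controls, with the higher signal in replicate 2. The difference was 0.89 ± 0.24 (SE), with a limma adjusted p of 0.345. Grin2c, for GluN2C, known mainly from cerebellar granule cells, went the other way. It read 3.98 and 3.71 on the controls and 3.35 and 3.31 on the Cre arrays, without overlap. The difference was -0.51 ± 0.14 (SE), and the limma adjusted p was 0.357. Grin2c was lower without overlap under all 4 scalings. Grin2a and Grin2d, for the other GluN2 subunits, were 0.38 and 0.44 higher with separate groups. On the values as deposited, however, none of these 3 GluN2 genes on the higher side was without overlap. The glycine-binding subunit gene Grin3b differed by 0.08, and its sign turned with the scaling (-0.10 to 0.08).

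**Figure D2:**
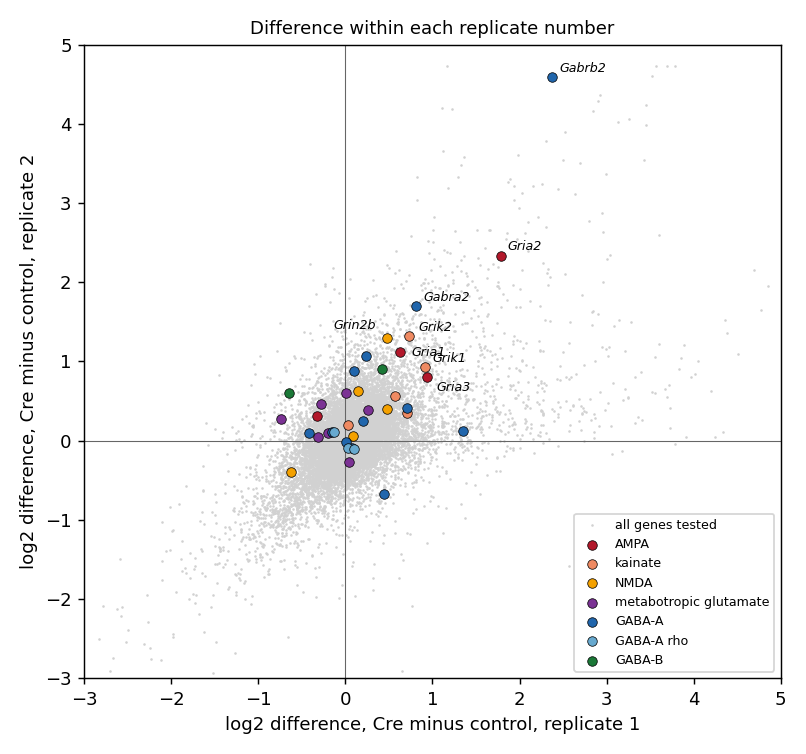
Log2 difference, Cre minus control, in replicate 1 (horizontal axis) against replicate 2 (vertical axis) for all genes tested (grey) and for the receptor genes coloured by family. Gabrb2 (2.37 and 4.59) and Gria2 (1.78 and 2.33) lie in the upper right and Grin2c in the lower left, and 14 genes lie outside the axes.

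The metabotropic glutamate receptor genes were close to the all-gene median, with a family median of -0.06. Of the 7, 3 had a difference above 0, and only Grm8 had groups that did not overlap. Grm8, for mGlu8, a presynaptic receptor, read 3.57 and 3.35 on the controls and 3.84 and 3.73 on the Cre arrays. These signals were below the 75th percentile, and the difference of 0.32 ± 0.14 (SE) had a limma adjusted p of 0.585. Grm5, for mGlu5, which couples to calcium release, read 3.88 and 3.06 on the controls and 3.88 and 3.65 on the Cre arrays. The groups overlapped, and the difference of 0.30 ± 0.30 (SE, limma adjusted p = 0.864) was 0.00 in replicate 1 and 0.60 in replicate 2. A further transcript cluster of Grm5 gave 0.75, so its clusters disagreed in size. Grm2, for an inhibitory presynaptic receptor, was the only Grm gene above the 75th percentile on all 4 arrays and differed by -0.24, with -0.74 in replicate 1 and 0.27 in replicate 2. Grm3, related to Grm2, differed by 0.09 with a sign that turned with the scaling. Grm6, the receptor through which ON bipolar cells sense photoreceptor glutamate, differed by -0.06. Grm4 and Grm7, for other presynaptic receptors, differed by -0.14 and -0.11.

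In the GABA-A receptor family, Gabrb2 had the largest difference of all 38 genes, on the cluster used here. It encodes the beta2 subunit, which helps form the GABA binding site in many receptors of the adult brain. It read 3.87 and 3.77 on control replicates 1 and 2 and 6.24 and 8.36 on Cre replicates 1 and 2. Both controls were below the 75th percentile and both Cre arrays were far above it, but the Cre arrays also lay far apart from each other (SD 1.498). The difference was 3.48 ± 0.70 (SE, n = 2 per group), with a limma p of 0.00411 and an adjusted p of 0.231. For this cluster, the Cre mean was at least 8.33-fold above the 75th percentile of the control arrays, taken in place of the controls' own lower signals. On the values as deposited the limma adjusted p was 3.02e-16, and over all alternatives it ran from 3.02e-16 to 0.581. Since adjusted p did not hold its error rate on the values as deposited, that small value is not read as a call. A further Gabrb2 cluster read 4.06 and 3.95 on the controls and 5.44 and 5.98 on the Cre arrays. The further cluster thus had a smaller difference of 1.701 in the same direction. Its controls were the brighter ones, so the cluster used had the highest mean over the 4 arrays through the Cre arrays alone. The bound of 8.33-fold does not hold for this further cluster.

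Gabra2 encodes the alpha2 subunit, an early alpha subunit in much of the developing brain. It read 3.90 and 3.47 on the controls and 4.70 and 5.17 on the Cre arrays. The controls were below the 75th percentile and the Cre arrays above it, with no overlap. The difference was 1.25 ± 0.26 (SE), with a limma adjusted p of 0.241, and the Cre mean was at least 1.62-fold above the controls' 75th percentile. Gabra3, for alpha3, was above the 75th percentile on every array and hardly differed: it read 6.55 and 6.43 on the controls and 6.39 and 6.53 on the Cre arrays, and the difference was -0.03. A further Gabra3 cluster gave 0.60, so its clusters disagree.

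The remaining GABA-A genes spread to both sides of 0. Gabra4, Gabra5 and Gabrb1, for further alpha and beta subunits, and Gabrq, for the theta subunit, were 0.56, 0.22, 0.65 and 0.49 higher with separate groups and were below the 75th percentile on every array. Gabrp, for the pi subunit, was 0.74 higher on average, but by 1.35 in replicate 1 and 0.13 in replicate 2, with overlapping groups. Gabre, for epsilon, differed by -0.11, from 0.45 in replicate 1 to -0.68 in replicate 2. Gabra6 and Gabrd, for the alpha6 and delta subunits that meet in cerebellar granule cells, both differed by -0.01. Gabrg3, for a gamma subunit, differed by -0.16.

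Many GABA-A genes lie beside each other, and neighbours did not all differ alike. In the RefSeq gene order Gabra6 is next to Gabrb2, and their differences were -0.01 and 3.48. Gabra2, Gabra4 and Gabrb1 share another run, with 1 other protein-coding gene between Gabra2 and Gabra4, and their differences were 1.25, 0.56 and 0.65. Gabrg3 and Gabra5, neighbours in a further run, differed by -0.16 and 0.22.

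The rho genes, known for slow GABA currents in retinal bipolar cells, were near 0 and below the 75th percentile on all arrays. Gabrr1, for rho1, read 3.37 and 3.32 on the controls and 3.24 and 3.44 on the Cre arrays, a difference of -0.01 (95% interval -0.31 to 0.29). Gabrr2, for rho2, read 3.40 and 3.43 on the controls and 3.43 and 3.34 on the Cre arrays, a difference of -0.03 (95% interval -0.31 to 0.24). The groups overlapped for both, and Gabrr3 differed by -0.00.

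The GABA-B receptor is a pair of unlike subunits, and both of its genes were above the 75th percentile on all 4 arrays. Gabbr1, for the subunit that binds GABA, read 7.29 and 6.42 on the controls and 7.71 and 7.32 on the Cre arrays. The groups were separate by a hair, since control replicate 1 and Cre replicate 2 were nearly level. The difference was 0.66 ± 0.38 (SE), 1.58-fold, with a limma adjusted p of 0.695. Gabbr2, for the subunit that couples to the G protein, read 5.30 and 4.27 on the controls and 4.65 and 4.88 on the Cre arrays. Both Cre arrays lay between the controls, and the difference of -0.02 ± 0.38 (SE, limma adjusted p = 0.995) was -0.65 in replicate 1 and 0.61 in replicate 2.

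Set by type of receptor, the ion channel genes had the higher median. Of 29 ion channel genes, 19 were above 0, with a median difference of 0.44. Of these 29, 15 were higher and 1 lower without overlap, beside 23.3% and 15.8% of all genes. With arrays centred on the genes tested the counts were 11 and 8, beside 10.1% and 35.1% of all genes. Of 9 genes for receptors coupled to G proteins, 4 were above 0, with a median of -0.02, and 2 were higher without overlap, near the 23.3% of all genes. Within the ion channels, the 14 AMPA, kainate and NMDA genes had a median of 0.55, with 12 above 0. The 12 GABA-A genes had a median of 0.36 and the 3 rho genes one of -0.01. These medians rest on few genes, many of them dim, and differences between families were not tested.

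**Figure D3:**
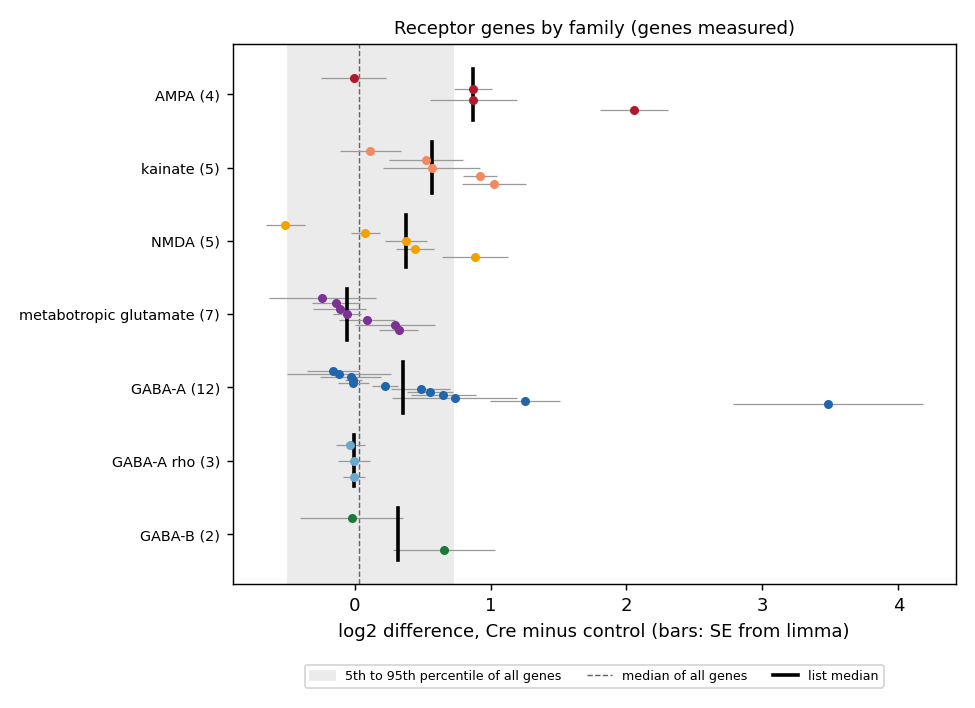
Log2 difference, Cre minus control, of each receptor gene by family (points, bars are limma's SE), with the family median as a black line, the all-gene median of 0.03 dashed and the 5th to 95th percentile range of all genes, -0.49 to 0.72, shaded. AMPA and kainate medians (0.87 and 0.57) lie above the all-gene median, and the metabotropic and rho medians (-0.06 and -0.01) lie just below it.

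The other genes of both transmitter systems were read from 6 lists, chosen with earlier results of these data known. Of 87 listed genes 78 were measured, and limma called none of them at an adjusted p of 0.05. It called 6 with the values as deposited, and 2 with arrays centred on the genes tested. Without adjustment 24 of the 78 had p under 0.05 on the higher side, beside 5.9% of all genes, and 4 on the lower side, beside 3.77%. The counts of single lists below are read against these shares. The median difference was 0.29 beside 0.03 over all genes.

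On the glutamate side, release and uptake genes had a median of 0.13, with 3 of 10 at an unadjusted p under 0.05 on the higher side and 1 on the lower. Slc17a6, the vesicular glutamate transporter VGLUT2, read 6.39 and 6.08 on the controls and 8.28 and 9.39 on the Cre arrays. The groups were far apart, with a difference of 2.60 ± 0.43 (SE, limma adjusted p = 0.164). Slc1a1, a neuronal glutamate transporter, was 0.40 higher (limma adjusted p = 0.447). The list of auxiliary subunits also holds Cbln1, Cbln2, Cbln4 and Grid1, a delta receptor gene. Its median was 0.43, with 8 of 18 genes at an unadjusted p under 0.05, all higher, the Cbln genes among them. Cbln1 and Cbln4 encode secreted cerebellins, which in cerebellum link presynaptic neurexins to delta glutamate receptors. Cbln1 read 4.06 and 3.58 on the controls and 6.36 and 7.36 on the Cre arrays, a difference of 3.04 (limma adjusted p = 0.118). Cbln4 read 3.73 and 3.67 on the controls and 5.43 and 5.89 on the Cre arrays, a difference of 1.96 (limma adjusted p = 0.108). For both, the controls were below the 75th percentile and the Cre arrays above it. All 19 measured scaffold genes had a centred difference above 0 (median 0.34), but 14 did on the values as deposited, 16 with quantile normalization and 12 with arrays centred on the genes tested. On the centred values 8 were at an unadjusted p under 0.05, all higher, led by the kinase gene Camk2a at 1.00 and the postsynaptic scaffold Shank1 at 0.96 (limma adjusted p 0.240 and 0.305).

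On the GABA side, genes of synthesis, release and uptake were mostly lower, with a median of -0.53 and 6 of 8 below 0. Gad2, the GABA-synthesising enzyme GAD65, read 8.48 and 8.92 on the controls and 6.17 and 6.35 on the Cre arrays. The groups were far apart, and the difference of -2.44 ± 0.27 (SE) had a limma adjusted p of 0.107. Slc6a11, the GABA transporter GAT3, differed by -0.70 (limma adjusted p = 0.3603). GABA receptor scaffolds and auxiliary subunits had a median of 0.40, with 3 of 14 at an unadjusted p under 0.05, all higher. Shisa7, listed for both receptor types, differed by 2.07 (limma adjusted p = 0.370), by 0.82 in replicate 1 and 3.32 in replicate 2. Kctd12, an auxiliary subunit of GABA-B receptors, differed by 1.28 (limma adjusted p = 0.411). Chloride transporters and glycine receptors had a median of 0.19, with 2 of 10 at an unadjusted p under 0.05, both higher. Slc12a5, the chloride exporter KCC2, was 0.77 higher and Glrb, the glycine receptor beta subunit, 0.68 higher (limma adjusted p 0.339 and 0.455).

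**Figure D4:**
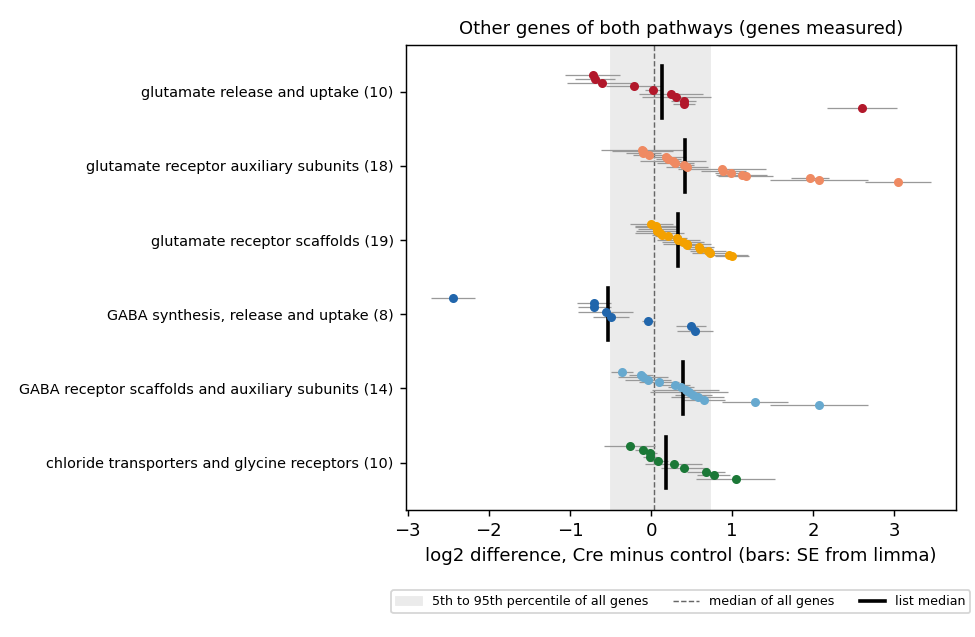
Log2 difference, Cre minus control, of the other measured genes of both transmitter systems (points, bars are limma's SE), by list with the number measured. Black lines are list medians, from -0.53 for GABA synthesis, release and uptake to 0.43 for the list of glutamate auxiliary subunits, cerebellins and Grid1. The dashed line is the all-gene median and the shading spans the 5th to 95th percentile of all genes.

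Markers of other cell types also differed between the groups. Of all genes, 23.3% were higher and 15.8% lower without overlap on the centred values. The higher share was 9.63% as deposited, 20.6% with quantile normalization and 10.1% with arrays centred on the genes tested. Marker counts without overlap are read against these shares. All 11 measured forebrain and hypothalamic neuron markers, a list that also holds Slc17a6, were higher without overlap on the centred values, and 10 were on each other scaling. Their median difference was 2.85 in replicate 1 and 4.24 in replicate 2, and their summed linear signal was 509 to 548 on the controls and 1605 to 3002 on the Cre arrays. Of the 17 receptor genes higher without overlap, 13 had the wider gap in replicate 2, among them Gabrb2, Gria2 and Gabra2, and Grik1 by little. The other 4, Gabra4, Gria3, Grik3 and Grin2d, had the wider gap in replicate 1. No share over all genes stands beside this count or beside that of the neuron markers below. Neither count therefore sets these genes apart from other genes. Differentiating neuron markers had a median of 0.32. Of 12, 8 were higher without overlap on the centred values, beside 23.3% of all genes, and 1 as deposited, beside 9.63%. With quantile normalization 4 were, beside 20.6%, and with arrays centred on the genes tested 2 were, beside 10.1%. The 8 on the centred values all had the wider gap in replicate 2, for example Map2 with 0.86 and 1.50. Their sums were 4499 to 6720 on the controls and 4260 to 8664 on the Cre arrays.

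Periocular mesenchyme and pigment epithelium markers, from tissue around the neuroretina, stood highest on Cre replicate 1. Of 9 periocular mesenchyme markers 8 were higher without overlap, with sums of 188 to 207 on the controls and of 429 to 3046 on the Cre arrays. Their median was 3.08 in replicate 1 and 1.01 in replicate 2. Gabrp, with 1.35 and 0.13, had the same order. Of 9 pigment epithelium markers 7 were higher without overlap, with sums of 157 to 303 and of 439 to 1302, while Rpe65, Rdh5 and Ttr stayed below the 75th percentile on every array. Of 8 endothelial markers 7 were higher without overlap (median 1.05). The sums over all 8 overlapped, with 555 to 709 on the controls and 452 to 822 on the Cre arrays. Kdr, the only lower marker, was the brightest on every array and weighed most in these sums. It read 9.17 and 8.69 on the controls and 8.58 and 7.87 on the Cre arrays. All 8 macrophage markers were higher without overlap on the centred values (median 0.73), but 1 of 8 was as deposited and 6 were on each of the other scalings. Their sums were 134 to 146 and 217 to 274, and Ptprc stayed below the 75th percentile. Retinal ganglion cell markers had a median of 0.04 but ran from -1.64 for Atoh7 to 2.49 for Eomes. Of these 9, 1 was higher and 2 were lower without overlap, beside 23.3% and 15.8% of all genes. Amacrine and horizontal cell markers had a median of 0.14 but ran from -3.24 for Foxn4 to 3.66 for Lhx1, with 4 of 11 higher and 4 lower without overlap, and Ptf1a was below the 75th percentile. Photoreceptor precursor markers had a median of -0.67, with 4 of 6 lower without overlap. The part of any of these cell types in the receptor differences was not tested.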

How the data were processed

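Per the labels, RNA from dissected neuroretina was hybridised to single-colour whole-transcript Affymetrix arrays. Per the submitters' processing notes, RMA and Partek were used with mouse build mm9, and no versions or settings are given in the sources used here. The deposited values are log2 signals per transcript cluster, whose array medians were 2.97 and 3.53 for control replicates 1 and 2 and 2.85 and 3.46 for Cre replicates 1 and 2, so the arrays were not on 1 scale. Each array was therefore centred on its median over all 112205 clusters, with the mean of the medians added back.

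The platform table named 25513 clusters with 1 symbol, 2290 with several and 84402 with none. Each gene took its 1-symbol cluster with the highest mean over the 4 arrays, which gave 20252 genes. Grin3a and Gabrg1 lie on clusters with several symbols and were left out. R 4.3.3 with limma 3.58.1 compared the genotypes two-sided, by lmFit followed by eBayes with its trend option, with Benjamini-Hochberg adjustment over all genes at 0.05, and the code was tested on simulated data. Only 2 arrays per group limit the precision.

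Values on every array were given for the receptor genes called in any of a set of scalings and for the 2 with the largest absolute difference in each family. From each pathway list the 2 of smallest p were named, several of them with the difference only. The receptor genes, lists and rules were chosen with earlier results of these data known. Alternatives were the values as deposited, quantile normalization, filters on low signal, no trend, the mean of a gene's clusters, an adjusted p of 0.10, a replicate block, leaving out each array, and centring on the genes tested.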

Additional observations from a re-analysis of the deposited data

How the results depend on the processing

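With limma at an adjusted p of 0.05, the count of genes called was 0 with quantile normalization (2263 at an unadjusted p under 0.05), without the trend (1957), with the mean of clusters (2007) and without genes below the 25th percentile (1629). It was 415 on the values as deposited, where adjusted p did not hold its error rate in a simulation. It was 118 with centring on the genes tested (added after seeing the data) and 53 without genes below the median level. At an adjusted p of 0.10 it was 17. Receptor genes called were 2, 1 and 1 in these first 3 settings, and pathway genes 6, 2 and 1. The median over receptor genes, 0.26, was 0.086 with centring on the genes tested and 0.57 without genes below the median level, which keeps only the brighter genes. Scaling also moved the split of receptor genes higher and lower without overlap: 17 and 1 when centred (23.3% and 15.8% of all genes), 12 and 1 as deposited (9.63% and 10.2%), 18 and 2 with quantile normalization (20.6% and 20.9%) and 13 and 10 with centring on the genes tested (10.1% and 35.1%). Leaving out 1 array gave 0 to 777 genes called, 0 to 5 receptor genes, 0 to 5 pathway genes and a receptor median of 0.11 to 0.43, and the lone array was then assumed to vary like the other group. Leaving out either control array gave 0 (1482 and 1319 at an unadjusted p under 0.05 without replicates 1 and 2). Without Cre replicate 1, limma called 273 genes, and Gabra2, Gabrb2, Gria2, Grik1 and Grin2b among the receptor genes. Without Cre replicate 2, it called 777, and Gabrb2, Gabrp, Gria2, Gria3 and Grik1. Signs turned on leaving out an array for Gabbr2 (-0.53 to 0.49), Gabrr1 (-0.10 to 0.090), Gabrr2 (-0.077 to 0.013) and Grm5 (-0.11 to 0.71). The cause of these changes was not tested. With the replicate block, 0 genes passed (3266 at an unadjusted p under 0.05), so no call differed, and Gria2 had the lowest adjusted p of the receptor genes, 0.0995. Same-numbered arrays deviated together (correlation 0.479 across genes), but 2 numbers cannot settle whether they pair the samples. Among the values of single genes under the alternatives, 142 kept direction and side of the threshold, 12 passed it newly and 6 turned sign.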

Other observations

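Genes of receptor partners and relatives did not all differ alike, and these genes were singled out after their values were seen. Cbln2, another cerebellin gene, was 1.12 higher (0.55 in replicate 1 and 1.68 in replicate 2), while Grid1, a delta receptor gene that cerebellins bind, differed by -0.09. Among AMPA receptor auxiliary subunits, Cnih2 read 6.50 and 5.77 on the controls and 7.49 and 7.10 on the Cre arrays, a difference of 1.17. Cacng3, a TARP gene, was 0.98 higher, while the brighter TARP genes Cacng7 and Cacng4 differed by -0.11 and -0.10. Cacng2, whose protein is stargazin, differed by -0.23 in replicate 1 and 1.98 in replicate 2. None of these passed limma's adjusted p of 0.05.

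Gad1 and Gad2, which encode both GABA-synthesising enzymes, went opposite ways. Gad1 read 3.04 and 3.28 on the controls and 3.42 and 3.98 on the Cre arrays, all below the 75th percentile, a difference of 0.54, whereas Gad2 differed by -2.44. Slc32a1, the vesicular GABA transporter, was 0.49 higher.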
